A study of Drosophila melanogaster with 12 samples.

Results

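Late replication was compared between salivary glands that lack SUUR and the wing imaginal disc, a diploid tissue of the same larval stage. The comparison used 4 of the 12 libraries of the series, 2 per tissue, and every window of the 5 major chromosome arms, 118985 in all. Of these, 113633 had a score in all 4 libraries. The SuUR glands came from about 20 female 3rd instar larvae per library, taken before wandering, of a w118 stock carrying the SuURES allele. The wing discs came from female 3rd instar yellow-white larvae and carry no SuUR mutation in their labels. Their nuclei were sorted by DNA content into G1 and S phase, and libraries were made with a Rubicon Thruplex kit, whereas unsorted gland DNA went into a NEBNext Ultra II kit. Tissue, SuUR genotype, strain, method of profiling and kit therefore all differed between the groups and cannot be told apart. Oregon R glands, which are wild type for SuUR, were used to define underreplicated regions and as reference points. Rif1 glands (Rif11/Rif12 on w118) were used as reference points and in a separate fit against the SuUR glands. Both also have 2 libraries each. The series also holds Oregon R fat body of 3rd instar larvae and Oregon R follicle cells of the adult ovary. These entered only a fit with all 12 libraries. A library is a pool of animals, and DNA coverage gives no expression marker with which the labelled tissue could be checked.

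Cells of the larval salivary gland are polytene: they run repeated S phases without dividing, and late regions of their chromosomes fail to finish copying, which is called underreplication (UR). SUUR, the Suppressor of Underreplication, binds late-replicating chromatin and slows replication forks, with Rif1 as its partner, and in its absence the late regions are copied more completely. Cells of the wing disc, the sac of epithelium that will form the wing and notum, divide mitotically and must copy the whole genome in every cycle. Pericentric heterochromatin (PH), the repeat-rich chromatin beside the centromere, replicates late in most cells.

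The deposited score, named rawRT, is higher where a window is present in more copies, which is read as earlier replication. In polytene glands a low score can also come from copies missing through UR. The authors hold that the 2 may not be fully separable within UR, so late in the gland means low in score here. The scale of the score differed between the tissues. Over bins of 50 adjacent windows outside UR, the SD of the bin means was 0.643 in SuUR gland 1 and 0.592 in SuUR gland 2, against 0.301 in wing disc 1 and 0.312 in wing disc 2. Each bin was therefore also given a percentile rank within its library, from 0 for the latest bin to 100 for the earliest, and ranks are the main measure here. A total of 2353 bins with a median length of 50 kb were tested with limma, which was run on the 4 libraries with Benjamini-Hochberg adjustment over all bins, and a bin was called at an adjusted p below 0.05. UR was taken from the wild-type glands alone, so that the compared libraries had no part in its choice. In all, 191 bins lay in euchromatic UR (eUR), 55 in PH and 2107 in the remainder, labelled fully replicated (FR). The FR label means only that a bin was not classed as UR at the threshold of -2.85. At a threshold of -1, 525 bins counted as UR, against 246, so FR also holds bins with a lowered wild-type score. PH was counted from the centromere to the first long stretch above the UR threshold. The eUR class therefore also holds proximal stretches of the same bands as PH, such as 80F of 3L and 41A of 2R. The 45 eUR regions were 51.0 to 2287 kb long, with a median of 208.5 kb.

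Late bins of the SuUR gland were in part late bins of the wing disc, and the shared part lay mainly in UR. Among the latest 25% of bins in a gland library, 46.8 to 48.1% were also in the latest 25% of a disc library, over the 4 pairs across tissues. The 2 gland libraries shared 79.4% of their latest 25% and the 2 disc libraries 86.7%, so every pair across tissues lay below both pairs within a tissue. Among FR bins alone, with ranks taken anew, the share across tissues was 32.1 to 36.2%, against 72.7% within the gland and 82.5% within the disc. Of the latest 10%, 55.1 to 56.8% was shared across tissues over all bins, and 21.3 to 25.1% over FR bins. Unrelated rankings would share 25% of a latest or earliest 25%, and 10% of a latest 10%. Shares at the 2 limits are therefore not to be read against each other. The earliest 25% was shared less than the latest 25% over all bins, at 32.1 to 33.1%, against 75.9% within the gland and 72.2% within the disc.

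**Figure D1:**
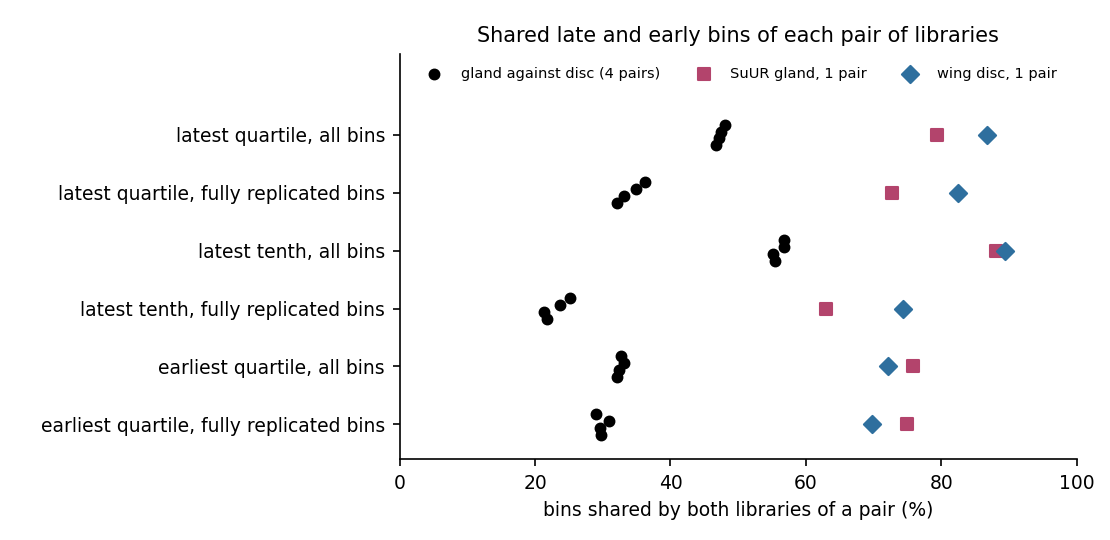
Percentage of bins in the latest 25% (quartile), latest 10% or earliest 25% of a library that also lie there in a second library, over all 2353 bins or over 2107 fully replicated bins. Black points are the 4 pairs of a gland and a disc library, the square is the pair of SuUR gland libraries and the diamond the pair of disc libraries; every black point lies left of the squares and diamonds of its row.

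Spearman's rho between a gland and a disc library ran from 0.314 to 0.378 over all 2353 bins, from 0.399 to 0.465 over the eUR bins and from 0.151 to 0.228 over the FR bins. Within a tissue, rho over FR bins was 0.848 for the gland and 0.885 for the disc. These are descriptions over bins of the same libraries, neighbouring bins being alike, and no test was applied. In the same FR bins, wild-type gland libraries gave 0.286 to 0.320 with the disc and Rif1 gland libraries -0.05 to 0.014. The 3 sets of values share the disc libraries, and their ranges do not overlap.

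**Figure D2:**
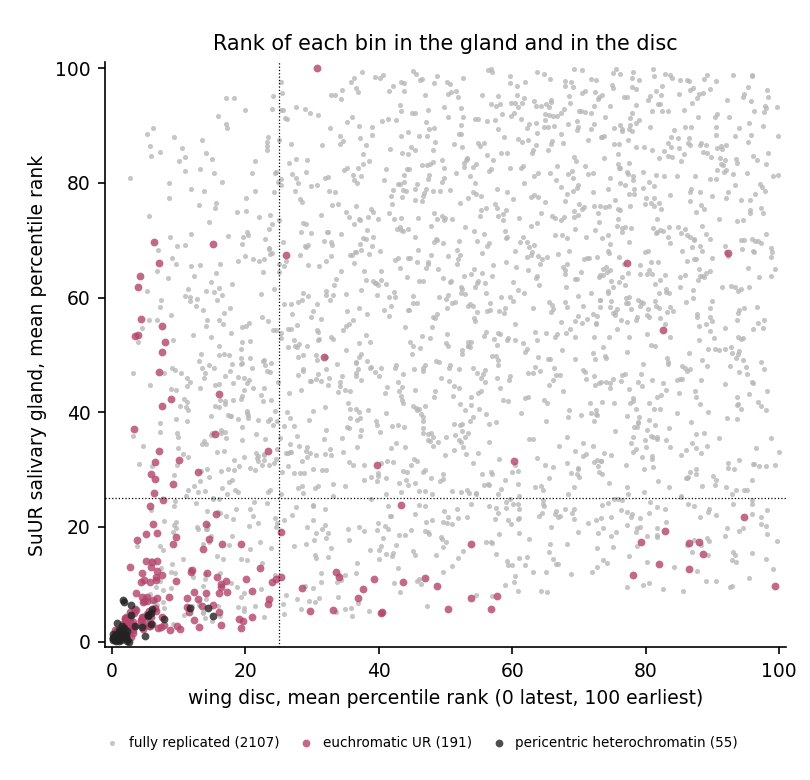
Mean percentile rank of each bin in the 2 SuUR gland libraries (vertical axis) against that in the 2 wing disc libraries (horizontal axis), 0 being the latest bin; grey points are fully replicated bins, red points euchromatic UR and black points pericentric heterochromatin. The dotted lines mark rank 25; the black points fill the corner that is late in both tissues, and the grey points spread over the whole field.

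In limma on ranks, 925 of the 2353 bins were called, which is 39.3%. The gland was earlier in 485 bins (20.6%) and later in 440 (18.7%). Rank differences of 50 points or more were found in 300 bins, of which 297 were called and 282 were FR. The groups did not overlap in rank in 1793 bins, or 76.2%. Replicates differed in a bin by a median of 7.23 rank points in the gland and 6.72 in the disc, against 21.1 to 22.2 points for pairs across tissues. The calls rest on both disc libraries: without wing disc 1 or without wing disc 2 no bin passed the adjusted threshold, although 933 and 968 bins, respectively, had an unadjusted p below 0.05 in limma. Without SuUR gland 1 the count was 494, and without SuUR gland 2 it was 596.

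The eUR bins as defined here, proximal stretches among them, were late in the SuUR gland as they were in the disc. The median rank of the 191 eUR bins was 8.84 in SuUR gland 1, 8.21 in SuUR gland 2, 8.04 in wing disc 1 and 8.08 in wing disc 2. As group values these were 8.52 ± 0.45 for the gland and 8.06 ± 0.03 for the disc (SD, n = 2 each), while the median over bins of the gland minus disc difference was -0.43 points, of the opposite sign. As medians, both measures placed the tissues within 1 rank point of each other, while single bins differed in both directions. The median absolute difference of an eUR bin was 7.27 points, against 21.3 over all bins. Split by position, the medians of the eUR regions lay more than 1 point apart. Median ranks in gland and disc were 6.10 and 8.50 for the 11 regions within 3 Mb of the centromeric end. For the 34 regions farther out they were 16.2 and 11.7. Of the eUR bins, 156 and 157 lay in the latest 25% of the gland libraries, and 151 and 152 in that of the disc libraries. Limma called 54 of them (28.3%), 24 earlier and 30 later in the gland, against 39.3% of all bins. The lower quartile of the eUR ranks was 3.95 to 4.23 in the 4 libraries. Ranks so low leave little room for a difference, so the 2 shares are not like for like. Without SuUR gland 1 and 2 the calls among all 246 UR bins were 26 and 28, and without either disc library none passed.

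In eUR the Rif1 glands had higher median ranks than the SuUR glands and the disc, though they were not fitted against the disc. Their eUR bins had a median rank of 34.6 in Rif1 gland 1 and 25.2 in Rif1 gland 2, and 83 and 95 of the 191 bins lay in the latest 25%. When SuUR and Rif1 glands were fitted against each other with limma on ranks, 55 of the 191 eUR bins were called (28.8%), all of them later in the SuUR gland, against 15.1% of all bins called in either direction. Over all 2353 bins, 199 were called later and 157 earlier in the SuUR gland. The SuUR libraries enter both this fit and the fit against the disc.

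**Figure D3:**
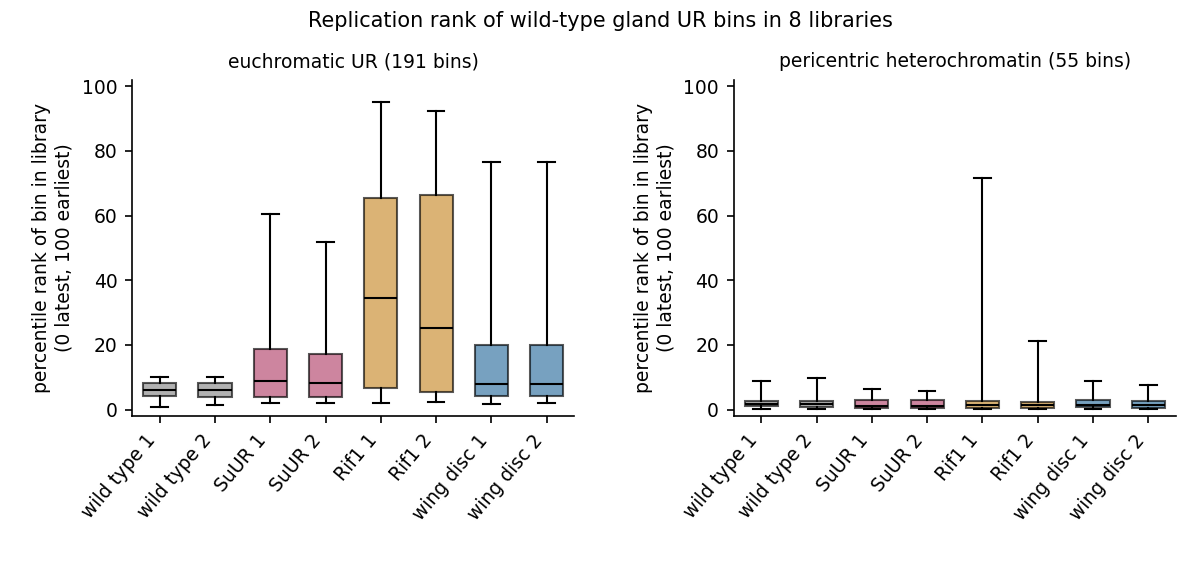
Percentile rank of the 191 euchromatic UR bins (left) and the 55 heterochromatic bins (right) in each wild-type, SuUR and Rif1 gland library and each wing disc library. The line is the median, the box spans the quartiles and the whiskers the 5th to 95th percentile; in eUR the SuUR gland medians of 8.84 and 8.21 lie beside the disc medians of 8.04 and 8.08, and the Rif1 medians of 34.6 and 25.2 above them.

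The scores gave another picture from the ranks, as their scales are not shared. Median rawRT over eUR bins was -1.47 ± 0.30 in the SuUR gland and -0.72 ± 0.04 in the disc (SD, n = 2 each), and -5.19 ± 0.57 in the wild-type gland. Limma on rawRT called 1101 bins (46.8%), 389 earlier and 712 later in the gland, and in eUR 144 of 191, of which 128 were later. After quantile normalization, which gives all libraries the same distribution, 51.6% of the called bins were earlier in the gland, against 35.3% on the scores as deposited. Without wing disc 1 or 2 the rawRT calls numbered 414 and 406. The one-way test of the study's methods, which treats the windows of a library as replicates, called 383 bins (16.3%) in 48 regions, 86 earlier and 297 later in the gland, and 168 of those bins were in UR. Without SuUR gland 1 it called 243.

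PH had the lowest ranks in both tissues. Its median rank was 1.23 in SuUR gland 1, 1.15 in SuUR gland 2, 1.53 in wing disc 1 and 1.45 in wing disc 2, and all 55 bins lay in the latest 25% of all 4 libraries. No PH bin was called by limma on ranks, and none had an unadjusted p below 0.05. On rawRT, limma called 53 of the 55, all lower in the gland, with medians of -6.80 ± 0.94 in the gland and -1.32 ± 0.11 in the disc. The wild-type glands had -8.01 ± 0.83. Missing copies and late timing of PH in the glands were not told apart. Ranks at the bottom of the scale leave little room for a difference between tissues, and rawRT carries the depth of the dip, so the 2 measures are given side by side. The PH stretch of 3R, chr3R:493-3572600 in dm6 (band 81F), had mean rawRT of -5.85 and -7.03 in the glands and -1.23 and -1.42 in the discs. It stood at ranks 1.66, 1.36, 1.61 and 1.32 in the same order of libraries. At the proximal end of 3L, chr3L:27389000-28109000 (80F), rawRT was -2.83 and -2.30 in the glands and -0.90 and -0.95 in the discs, and the 4 ranks lay between 3.99 and 4.63. The PH of X, chrX:23163000-23539000 (20F), was at ranks 4.33 and 3.78 in the glands and 1.19 and 2.42 in the discs, and so was later in the disc without overlap. For 2L, chr2L:23091000-23512000 (40F), ranks were 5.95 and 5.10 in the glands and 8.84 and 6.80 in the discs. On 3R the tissues overlapped and on 3L they met at 4.55, while X and 2L differed in opposite directions.

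The 45 eUR regions differed among themselves more than their median shows. In 24 of them the region mean was in the latest 25% in all 4 libraries. A further 8 were in the latest 25% in the disc libraries only, 6 in the gland libraries only, and 2 in no library. In 23 regions the tissues lay within 10 rank points of each other, and 17 regions held no called bin. The tissues did not overlap in 19 regions earlier and 22 regions later in the gland, against 76.2% of all bins without overlap. A region mean mostly covers more windows than a bin, so these are unlike units. A lack of overlap can also be small, as at chr3L:25145000-25961000 with a difference of 0.45 points. Ranked by their means, the regions had a Spearman's rho of 0.243 between tissues (n = 45 regions, a description), against 0.953 between the gland libraries and 0.968 between the disc libraries. Which of the eUR regions was the later one was thus held within a tissue far more than across tissues.

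Distance from the centromere went with this. Of the 11 eUR regions within 3 Mb of the centromeric end of their arm, 10 were in the latest 25% in all 4 libraries, and of the 34 farther out, 14 were. Those 14 included stretches of the proximal bands 80F and 81F, at 3.54 to 4.58 Mb from that end. The limit of 3 Mb therefore does not separate proximal bands from the rest of the arm, and the contrast is not one within euchromatin. An example of the first kind is chr3L:25145000-25961000, an 816 kb stretch of band 80F, the band that also holds the PH of 3L. It has 3 protein-coding genes, among them FASN3 (a fatty acid synthase). Its ranks were 4.21 and 3.87 in the glands and 3.61 and 3.57 in the discs, and none of its bins was called. On rawRT the same stretch stood at -3.08 and -2.94 against -0.96 and -1.06.

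**Figure D4:**
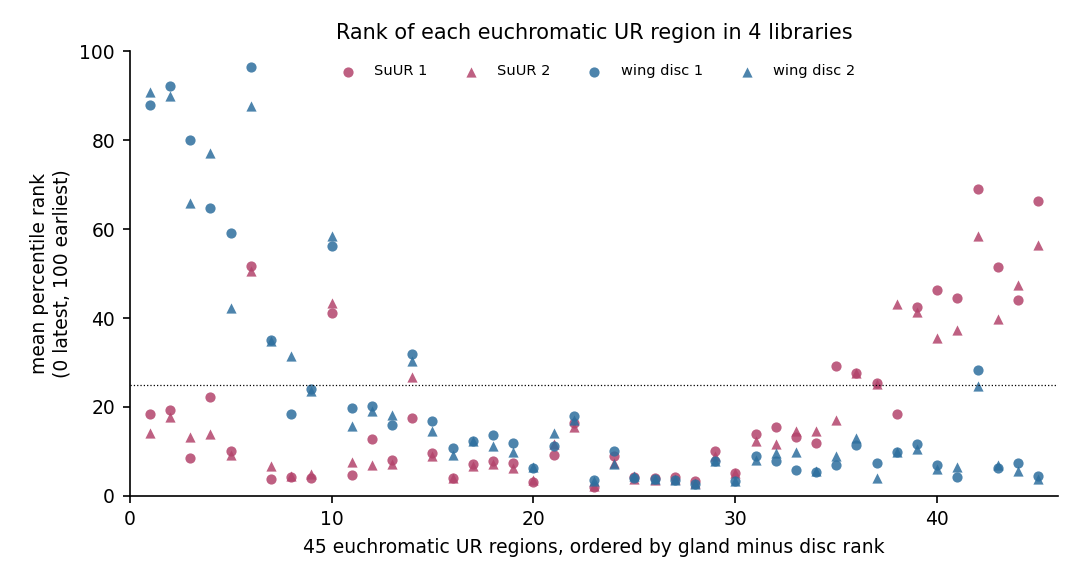
Mean percentile rank of each of the 45 euchromatic UR regions in the 2 SuUR gland libraries (red) and the 2 wing disc libraries (blue), with regions ordered by the gland minus disc difference and circles and triangles for libraries 1 and 2. The dotted line marks rank 25; 24 regions, most of them in the middle, lie below it in all 4 libraries, and those with the widest gaps between tissues stand at both ends.

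The 3 eUR regions with the lowest gland minus disc rank were late in the gland and early in the disc. At chr2L:15354000-15486000 (35D), which holds snail and worniu, zinc-finger factors of mesoderm and neural stem cells, ranks were 18.5 and 14.2 in the glands and 88.0 and 90.9 in the discs. At chrX:2984500-3117400 (3B to 3C), where CG4116 is the only protein-coding gene whose middle lies inside, they were 19.3 and 17.8 against 92.2 and 90.1. At chr3L:18204000-18446000 (75C), where the cell-death activators grim and skl (sickle) lie, they were 8.63 and 13.3 against 80.1 and 66.0. All 10 bins of these 3 regions were called later in the gland by limma on ranks. The same ranks chose the regions, so these calls are a description. In the Rif1 glands the same regions stood at 86.8 and 90.8, at 53.0 and 30.0, and at 26.4 and 46.

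The 3 regions with the highest difference were late in the disc and mid-ranked in the gland. At chr3R:28033000-28224000 (98B to 98C), which holds trv and CG34354, ranks were 66.3 and 56.4 in the glands and 4.50 and 3.74 in the discs. At chr3L:13573000-13842000 (70B to 70C), largely the gene bru3 (a member of the Bruno family of RNA-binding proteins), they were 44.1 and 47.4 against 7.35 and 5.69. At chr3L:4881400-5080100 (64C), which holds Con (Connectin, a cell adhesion protein of muscles and motor neurons), they were 51.5 and 39.9 against 6.29 and 7.01. Of their 13 bins, 12 were called earlier in the gland, which is likewise a description, as the ranks chose the regions. Wild-type glands had these regions at ranks 5.57 to 7.56 and Rif1 glands at 75.7 to 96.7. Low wild-type scores defined eUR and a high SuUR minus disc rank chose these 3, so a SuUR rank above the wild type follows from the choice.

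Called bins of all classes came in part as runs of neighbours. There were 247 runs called earlier in the gland, 485 bins in all, and 217 runs called later, 440 bins in all. The runs given next were taken for their length, so their bins' calls are a description. The longest named run earlier in the gland, chr3R:22607000-23061000 (94B to 94D, 61 protein-coding genes from CG31156 to sav), had mean ranks of 85.8 and 84.8 in the glands and 22.3 and 22.3 in the discs. At chr3L:22284000-22707000 (79D to 79F), which holds the long neural gene Ten-m (a teneurin for synaptic partner matching), they were 85.6 and 81.1 against 26.2 and 25.1. At chr2L:886880-1260300 (21E to 21F), with Star (S, an EGF receptor pathway component) and the larval serum protein gene Lsp1beta, they were 97.1 and 89.5 against 29.3 and 28.7. All of these runs had over 44% GC, at 44.5, 45 and 45.6%.

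Among the runs later in the gland, chr2L:20946000-21624000 (38F to 39E) had mean ranks of 20.7 and 18.5 in the glands and 63.2 and 59.8 in the discs. It holds Hr39, an ecdysone-inducible nuclear receptor, and part of the tandem histone gene array, where few windows can be scored. The tip of X, chrX:1-476880 (1A to 1B), with the achaete and yellow genes, stood at 11.7 and 19.1 against 77.1 and 73.9. The third, chr3R:21482000-21941000 (93E to 93F), stood at 31.2 and 21.6 against 91.2 and 92.2, and holds InR (the insulin receptor) and E2f1 (the activating E2F factor that drives S phase genes). GC content in these 3 runs was 39.9, 38.7 and 41.8%.

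GC content moved with the result. Over FR bins, Spearman's rho of rank with GC was 0.744 and 0.625 in the gland libraries and 0.111 and 0.129 in the disc libraries, and rho of the gland minus disc difference with GC was 0.455. The gland scores had been corrected for GC by the authors. After a quadratic fit of each library's FR bin scores on GC, chosen after seeing the data, limma called 769 of 2107 FR bins, against 966 before the fit with ranks over FR bins. Of those calls 586 were shared, all in the same direction, and 40 of the 966 had changed sign after the fit. The fit took 54.6 and 39.1% of the variance of the gland scores and 1.69 and 2.04% of that of the disc scores. The share of the latest 25% across tissues became 29.6 to 34%, and within the gland it became 64.5%. In each of the 6 runs above the mean difference kept its direction. The run at 38F to 39E then had a mean of -36.3 points and that at the tip of X one of -42.8. How far GC content bears on the calls as deposited was not tested further.

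Bins that were late in both tissues were poor in genes. In all 4 libraries 240 bins lay in the latest 25%, of which 119 were eUR, 55 PH and 66 FR. Their median was 1.20 protein-coding genes per 100 kb and 39.6% GC, against 9.62 genes and 42.4% over all bins. The 202 bins late in both gland libraries and in neither disc library were mostly FR (174), with 6 genes per 100 kb and 39.8% GC. The 226 bins late in the discs only were also mostly FR (203), and had the same gene density with 42.6% GC. Bins in the earliest 25% of all 4 libraries numbered 106, all FR, with 16.0 genes per 100 kb and 44.6% GC. Full opposition in every library was found in few bins: 37 were in the latest 25% of both glands and the earliest 25% of both discs, and 24 the reverse. By group mean rank the counts were 91, or 15.4% of the gland's latest 25%, and 54, or 9.17% of its earliest 25%. Unrelated rankings would give 25% in each case.

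The SuUR ranks chose these sets, so the ranks of the other glands in them are a description. The bins late in the SuUR gland only had median ranks of 21.7 and 24.1 in the wild-type glands and 24.1 and 22.9 in the Rif1 glands. The bins late in the disc only stood at 36.9 and 32.9 in the wild type and at 67.7 and 67.1 in the Rif1 glands. For the SuUR glands themselves the second set stood at 53.7 and 48.4. By rank, that second set was later in the wild-type gland than in the SuUR gland, and earlier in the Rif1 gland.

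The longest stretches late in all 4 libraries on the named arms were proximal. They covered 3742 kb of 3R in 37 bins (81F) and 3535 kb and 819 kb of 3L (80F). The first held 6 protein-coding genes, among them Parp1 (the poly(ADP-ribose) polymerase) and the ecdysone synthesis gene spok. Its mean ranks were 1.49 and 1.38 in the glands and 2.66 and 2.34 in the discs.

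Early bins shared by both tissues came in short stretches. At chr3L:8655100-8860200 (66D to 66E), with dally (a glypican that shapes Wingless and Dpp gradients) and the pair-rule repressor hry (hairy), ranks were 90.1 and 91.6 in the glands and 95.4 and 93.8 in the discs. The chorion genes Cp15, Cp16, Cp18 and Cp19, which encode eggshell proteins and are amplified in follicle cells, lie in this stretch. Their bin stood at 91 and 95.5 against 99.4 and 99.9, a difference of -6.42 ± 3.84 points (SE, limma adjusted p = 0.257).

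Genes were given the rank of the bin that holds their middle, and lists are described by counts beside the 20.6% of bins called earlier and the 18.7% called later in the gland. Without wing disc 1 or 2 none of the 39 named runs and genes kept its call, and without SuUR gland 1 and 2, 24 and 25 did. Hox genes were late in the gland. Of these 8 genes, which give body segments their identity, 7 lay in the latest 25% of the gland by mean rank and 1 in that of the disc. Antp, Dfd, Scr and pb, all in the Antennapedia complex, were called later in the gland, and the 4 other members were not called. The median difference of the 8 was -35.9 points, against 0.55 over all bins. Antp, the gene of the second thoracic segment from which the wing disc derives, had ranks of 28.6 and 8.16 in the glands and 85.3 and 98.5 in the discs. The difference was -73.6 ± 9.63 points (SE, limma adjusted p = 0.014). Scr, which is needed to form the salivary gland in the embryo, had ranks of 17.6 and 9.65 against 59.7 and 73.9, a difference of -53.2 ± 6.93 (adjusted p = 0.014). Dfd had 10.4 and 8.63 against 67 and 87.4, and pb 19 and 7.87 against 57.2 and 61.6. The 4 members that were not called included 3 in which the gland libraries lay below the disc libraries without overlap. These were lab, at 24.7 and 8.89 against 36.6 and 48.5 (limma adjusted p = 0.080), Abd-B, at 17.1 and 7.06 against 27.4 and 39.7 (adjusted p = 0.081), and abd-A, at 10.5 and 6.51 against 18.2 and 13.8 (adjusted p = 0.227). Only Ubx overlapped, at 48.3 and 17.3 against 18.1 and 41.5 (adjusted p = 0.897). Neighbouring members of a complex share sequence context and in part their bins' neighbours, so they are not separate measurements.

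Genes that pattern the wing disc leaned the same way. Of the 21 on the list, 8 were called later and 1 earlier in the gland, with a median difference of -37.4 points; 11 lay in the earliest 25% of the disc and 2 in that of the gland. The POU factor gene nub, which marks the wing pouch, had ranks of 25.5 and 11.9 in the glands and 98.7 and 97.8 in the discs (difference -79.5 ± 6.10, limma adjusted p = 0.007). For ac (achaete, a proneural factor of the bristles) the ranks were 7.27 and 11.1 against 95.1 and 70.2 (-73.4 ± 9.93, adjusted p = 0.015). The exception was rho (rhomboid, a protease that releases EGF receptor ligands), with 92.7 and 84.7 against 59.9 and 67.7 (24.9 ± 5.38, adjusted p = 0.036). That call was lost with the replicate block and after the fit on GC content, where the difference was 17.3. Genes such as hh (hedgehog), 91.8 and 87.1 against 66.2 and 88.7, were not called.

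Glue genes, whose secreted products fix the pupa to its support and which the gland expresses late in larval life, had a median rank of 82.5 in the gland and 40.8 in the disc. The 10 genes fall in only 5 bins, of which 1 was called; its 4 genes, Sgs4, ng1, ng3 and ng4, account for all 4 calls. That bin had ranks of 73.4 and 91.7 in the glands and 33.8 and 40.1 in the discs (45.6 ± 7.93, limma adjusted p = 0.024). With the smoothed scores its difference was 34.9 points and it was not called. The bin of Sgs3, Sgs7 and Sgs8 stood at 89.2 and 91 against 33.9 and 70.7 and was not called (37.8 ± 14.1, adjusted p = 0.111). The other 3 bins were not called either: Sgs1 stood at 92.4 and 86.6 against 73.3 and 77 (adjusted p = 0.071), Sgs5 at 53.2 and 80.6 against 38.4 and 50.9 (adjusted p = 0.209), and ng2 at 27.6 and 56.3 against 20 and 25.3 (adjusted p = 0.252). In all 5 bins the gland libraries lay above the disc libraries, and the median over the 10 genes was 37.8 points. In the wild-type glands the Sgs4 bin stood at 94.2 and 89.7.

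Regulators of the salivary gland did not share a direction. Of 8, 1 was called earlier and 2 later in the gland, with a median of -5.50 points. The homeobox gene hth (homothorax, a Hox cofactor), whose bin lies in eUR, had ranks of 20.9 and 13.1 in the glands and 48.7 and 58.8 in the discs (-36.8 ± 5.85, limma adjusted p = 0.020). The other gene called later was hkb (huckebein, which positions the gland's invagination in the embryo), at 28.3 and 32.7 against 75 and 87.2. The called gene on the other side was eyg, a Pax factor gene, at 86 and 80 against 65.9 and 57.4 (21.4 ± 5.17, adjusted p = 0.046). That call was lost with smoothed scores, where the difference was 8.40, after the fit on GC content (15.6), with the replicate block and with all 12 libraries in the fit. For fkh (fork head, a regulator of gland secretion), ranks were 98.6 and 94.6 against 84.9 and 53.2, which was not called (27.6 ± 12.3, adjusted p = 0.158).

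Of the 7 ecdysone response genes with a tested bin, 2 were called, both later in the gland: Hr39 at 23.8 and 22.1 against 64.3 and 88.2 and Eip75B, a nuclear receptor gene of the 75B puff, at 26.6 and 36.5 against 68.5 and 78.2. Eip74EF, the ETS factor gene of the 74EF puff, was early in both, at 99.4 and 96.0 against 83.3 and 89.6, as was usp, a subunit of the ecdysone receptor, at 96.4 and 96.6 against 83.4 and 90.9. After the fit on GC content the difference at Eip75B was -3.54 points and no longer called, while that at Hr39 was -61.6. The chorion genes Cp36 and Cp38 on X share a bin that was called later in the gland (-54.7 ± 9.60, limma adjusted p = 0.024) and lost the call after that fit, at -18.7.

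Genes of neuronal surface proteins and of chemoreceptors act mainly in neurons. Of 40 dpr, DIP and beat genes, which encode immunoglobulin-domain proteins of neuronal recognition, 15 were called earlier and 1 later in the gland, with a median of 15.5 points; 24 lay in the latest 25% of the disc and 15 in that of the gland. The gene beat-VI had ranks of 97.8 and 81.3 in the glands and 17.3 and 17.3 in the discs (72.3 ± 7, limma adjusted p = 0.009). Next was beat-VII, at 95.5 and 75 against 12.9 and 15.2. DIP-alpha was the member called later in the gland, at 23.9 and 24 against 68.1 and 53.7, a call lost after the fit on GC content (-27.1 points), and dpr18, at 14.7 and 37.9 against 42.2 and 49.9, was not called. The 133 chemoreceptor genes, in 94 bins, were split between 39 earlier and 28 later, with a median of 1.87 points. Their extremes were wide: Or94a and Or94b, odorant receptor genes in 1 bin, stood at 90.6 and 78.8 against 6.16 and 5.61, while Or1a stood at 7.36 and 11.6 against 91.5 and 93.8 and the gustatory receptor gene Gr93b at 14.9 and 15.3 against 92.8 and 94.1.

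Housekeeping lists were mixed. Of 65 ribosomal protein genes with a tested bin, 17 were called earlier and 9 later in the gland, with a median of 9.38 points. They reached from RpS3, a protein of the small subunit, at 23.9 and 20.5 in the glands against 99.0 and 92.9 in the discs (-73.8 ± 4.31, limma adjusted p = 0.007), to the stalk protein gene RpLP0 at 78.7 and 84.9 against 22.1 and 19.9 (60.8 ± 4.23, adjusted p = 0.007). Between these lay RpS7, at 41.9 and 41.1 against 91.7 and 95.9, and RpS2, at 95.2 and 89.1 against 52.8 and 37.1. Of 10 DNA replication genes, 2 were called earlier and 3 later. Those earlier were Mcm3, a helicase subunit, at 79.4 and 74.2 against 43.1 and 50, and Cdc6, a helicase loader, at 92.9 and 88.2 against 61.4 and 65.6. Mcm3 lost its call with smoothed scores (26.6 points) and after the fit on GC content (23.4). Orc2, a subunit of the origin recognition complex, was later, at 61 and 48.4 against 97.4 and 97.7. The bin of SuUR itself was later in the mutant gland, at 37.0 and 46.4 against 97.7 and 96.2 (-55.2 ± 4.92, limma adjusted p = 0.008), and at 55.6 and 57.0 in the wild-type gland. Its score reflects copy number and does not test the allele. CycE (Cyclin E, the driver of S phase entry) was late in all 4 libraries, at 9.91 and 8.84 against 7.87 and 9.91.

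**Figure D5:**
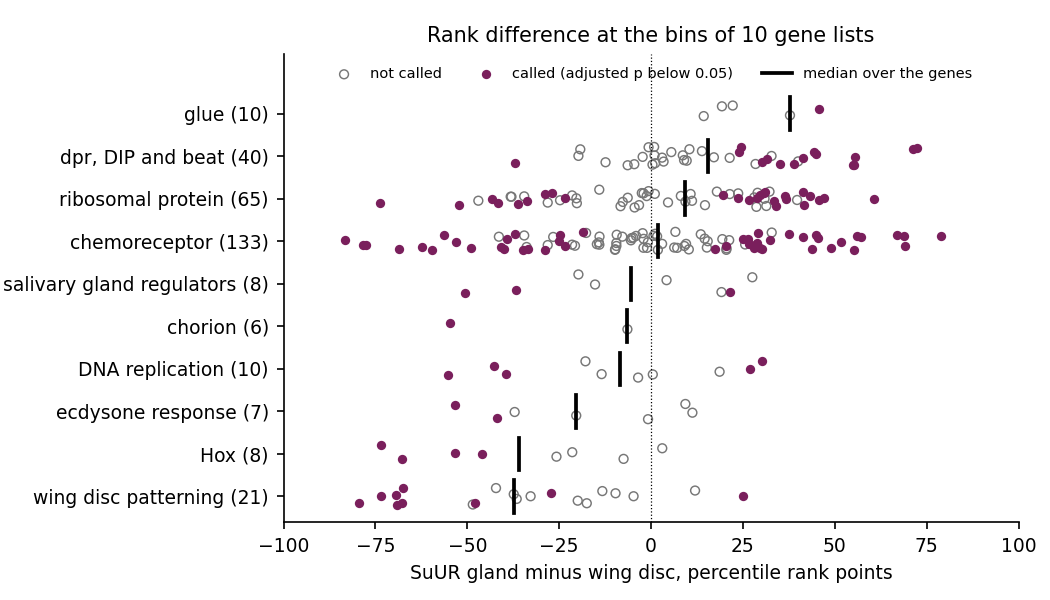
SuUR gland minus wing disc difference in percentile rank for the bins of 10 gene lists, each point a bin and the number of genes in brackets; filled points were called by limma at an adjusted p below 0.05 and black bars are medians over genes. Hox and wing disc patterning genes have medians of -35.9 and -37.4 points, glue genes one of 37.8.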

How the data were processed

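The deposited rawRT and smoothed tables hold scores per window of 1000 uniquely alignable bp on dm6. For the glands, the authors aligned reads with BWA 0.7.17, marked duplicates with Picard, corrected coverage for GC content, removed outlier windows and standardised the score (mean 0, SD 1) over arm sequence outside UR. Wing disc scores came from earlier work whose processing is not given in the sources used here; by their values they are standardised over X. Neither table holds reads, so depth is unknown.

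Bins of 50 windows with at least 25 valued in all 4 libraries were tested with limma 3.58.1 (lmFit, eBayes) in R 4.3.3, on ranks and on rawRT, and by the study's one-way analysis of variance (Bonferroni 0.01, regions over 200 kb). UR was called from wild-type glands (running median of 21 windows, threshold -2.85, at least 50 kb); PH ended at 100 windows above it. A gene took the bin of its middle, from RefSeq. Gene counts of regions and bins likewise take only genes whose middle lies inside. Members and lists were chosen with earlier results of these data known. Named were, on X, 2L, 3L and 3R, the 3 longest called runs each way with under 10% of windows in UR, the 3 longest runs late in all 4 libraries, PH, the 3 extreme eUR regions each way, the 2 extremes each way of each list, all Hox and glue genes and SuUR; other names were added after their values were seen. Steps were tested on simulated data. Replicates are labelled 1 and 2, and same-numbered libraries of the tissues do not share a source; p-values measure the spread between 2 libraries per tissue. Of the 8 columns from other libraries, those of the wild-type glands set the UR classes and those of the Rif1 glands entered a fit against the SuUR glands. All 8, those of fat body and follicle cells included, entered the setting with all 12 libraries in the fit. Otherwise the wild-type and Rif1 gland columns served as reference points. No value of the fat body and follicle cell columns is given here.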

Additional observations from a re-analysis of the deposited data

How the results depend on the processing

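Depth is unknown, each tissue has 2 libraries, and leaving out 1 removes the spread of its tissue, which is then assumed to equal that of the other. Limma on ranks called 925 bins as reported and 0 to 596 when a library was left out, with 0 without either disc library and 494 and 596 without SuUR gland 1 and 2. On rawRT the 1101 calls became 406 to 1578 and in the one-way test the 383 bins became 243 to 296. Among UR bins the 54 calls became 0 to 28. The bin size (25 or 100 windows), smoothing, the minimum of windows, ranks within arms or over FR bins, all 12 libraries in the fit and, for rawRT, rescaling left both limma counts within 1.5 times of the reported share. The replicate block gave 787 calls on ranks, 1114 on rawRT and 383 in the one-way test; deviations of same-numbered libraries correlated at 0.024 on ranks, so the numbers do not pair the samples; 37 of 39 named runs and genes kept their call under the block, 33 with smoothing and 38 with all 12 libraries. Without the length limit the one-way test gave 783 bins. With window ranks it gave 364, of which 168 were earlier in the gland, against 86 as reported. The mean share of the latest 25% across tissues was 47.4% as reported, 56.0% for the latest 10%, 34.1% over FR bins, 49.7% with smoothing, 34.1% over single windows and 31.7% over FR bins after the fit on GC content. With a UR threshold at -1, 184 of 525 UR bins were called. The PH median difference of -0.26 rank points became -1.45 with that threshold, 0.00 with ranks within arms and -0.17 with smoothing; that of eUR ran from -0.71 with ranks within arms to 0.02 with that threshold, against -0.43 as reported, and was the one result here that changed sign. Of those on FR bins, 31 of 38 kept their call after the fit on GC content. The cause of these changes was not tested.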
